A study of Danio rerio with 6 samples.

Results

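In laser-captured distal pronephric tubule of zebrafish embryos, 218 of 10022 listed transcripts were counted in every epcam mutant library and in no control library. They were chosen by the counts themselves: 0 in each of 3 controls, and at least 1 in each of 3 mutants. Counts here are the deposited values less each library's lowest value, which was read as a constant. That reading is an inference, and without the subtraction 0 rows met the rule. Names starting with slc, kcn, cacn, pcdh, wnt, hox, fox or sox were left out, which removed 9 further rows. Before these names were left out, 227 rows met the counts, or 2.27% of all rows. The opposite pattern, at least 1 count in each control and 0 in each mutant, was met by 59 rows, or 0.589%. Both figures describe the choice, so the difference between the groups in these genes is not a finding and was not tested.

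The controls were wild type at the epcam locus (epcam+/+) and the mutants carried 2 copies of the allele hi2151 (epcamhi2151/hi2151). Both groups bore the reporters Tg(wt1b:GFP) and Tg(cdh17:GFP) and were collected at 48 hours post fertilization. RNA from the captured cells was primed at random and at the poly-A tail and amplified as whole cDNA, and its strand was not kept. The sources do not state the embryos or captures behind each library, so the spread between libraries may be partly technical.

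The pronephros is the kidney of the fish embryo, and its distal tubule is a simple epithelium that adjusts the salt content of the filtrate. Epcam is an adhesion protein on the surface of such epithelia. Some of the genes described here are better known from other tissues, such as receptors of neurons, a myosin of muscle, a stereocilia protein of the ear, or enzymes of gut and liver. A bulk capture cannot tell fewer cells of a type from less RNA per cell, and it holds whatever tissue was cut out with the tubule.

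The shallowest library, mutant 2, had 126861 counts in total and the deepest, control 2, had 746232. Controls 1 and 2 belong to one sequencing project, and control 3 and all mutants to another. Between 21.4% and 27.7% of rows were at 0 in each library except mutant 3, where 9.46% were. Counts of epcam were 10, 15 and 10 in controls 1, 2 and 3 and 0 in each mutant. Markers of the whole pronephric epithelium, 10 of 13 of them among the rows, summed to 12600, 10300 and 808 CPM (counts scaled to a fixed library total) in controls 1, 2 and 3. In mutants 1, 2 and 3 they summed to 9940, 1960 and 4600 CPM, so control 3 was the lowest of all 6. Distal tubule markers, 12 of 15, summed to 2560, 2740 and 1230 CPM in controls 1, 2 and 3. In mutants 1, 2 and 3 they summed to 4400, 733 and 2090 CPM, so by this list mutant 2 was the lowest. Gut, liver and yolk markers, 18 of 25, summed to 8640, 11200 and 99500 CPM in controls 1, 2 and 3, against 546, 883 and 1020 CPM in mutants 1, 2 and 3. Keratinocyte and periderm markers, 17 of 24, were at 37300 CPM in control 3 and between 985 and 3670 CPM elsewhere. The part of these tissues in the results below was not tested.

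Most members were counted few times. The median count was 12.5 in mutant 1, 10 in mutant 2 and 9 in mutant 3. In their least covered mutant, 58 members had a single count, 66 had 5 or more and 21 had 10 or more. All members together held 2.29%, 2.57% and 1.47% of the counts of mutants 1, 2 and 3. Summed over the mutants, a member had between 13 and 493 counts, with a median of 40.0. Amplified copies are not independent molecules, so the floors given below cover counting error only.

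By its values, the deposited table appears to hold only rows that reach a limit in some library. For rows at 0 in the controls the limits were read from the rows themselves as the lowest counts seen. They were 11 counts in mutant 1, 12 in mutant 2 or 41 in mutant 3. Read in this way, each member reaches at least 1 limit by construction. Of the 218, 180 reached it in 1 mutant alone, 34 in 2 and 4 in all 3. Transcripts with fewer counts in every mutant are not analysed here. On this reading, the high count of at least 1 mutant is part of how the set arose.

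**Figure D1:**
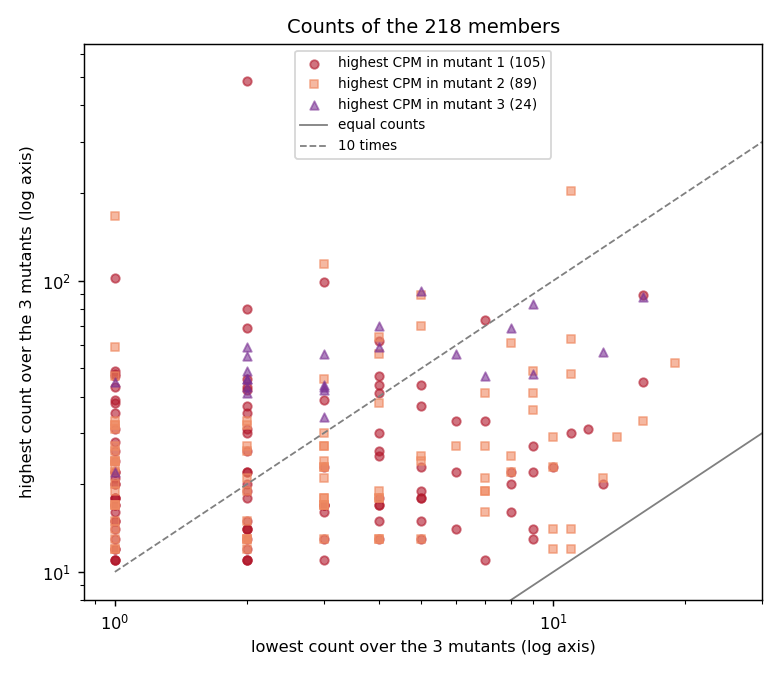
For each of the 218 members, the lowest (x axis) and highest (y axis) count over the 3 mutants, both on log axes, with colour and shape for the mutant of highest CPM. Most points lie at 1 to 5 on the x axis, and no point lies on the line of equal counts.

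The mutants differed widely among themselves in these genes. Scaled to CPM with edgeR's TMM factors, the highest mutant exceeded the lowest by a median of 9.88 times, and by 10 times or more in 106 of 218 members (48.6%). The same median over the mutants was 4.39 times for the 3354 rows counted in all 6 libraries, of which 22.4% reached 10 times. By the limits given above, a member entered only through a high count in a mutant, while 1 count in another was enough. The selection thus set part of the members' spread, so the 2 medians are not a like comparison. The 59 rows of the opposite pattern had a median of 13.5 times over the controls, against 7.89 times over the controls for the rows counted in all 6 libraries. The highest CPM fell in mutant 1 for 105 members, in mutant 2 for 89 and in mutant 3 for 24. The limit for entry was 41 counts in mutant 3 against 11 and 12 in mutants 1 and 2, and highest there by CPM too. The filter thus sets part of these numbers, and of those given by class below.

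The extremes of this spread were set by single libraries. Counts of dtna, which encodes dystrobrevin of the dystrophin complex, were 484, 2 and 7 in mutants 1, 2 and 3. Counts of fam60al were 1, 167 and 54, a 202-fold range of CPM. In rasef, a small GTPase of the Rab type with EF hands, mutant 1 had 102 counts and mutants 2 and 3 had 1 and 6. Only 5 members passed 100 counts in any mutant, and the lowest mutant count among those 5 was at most 11. At the other end, 7 members lay within 2-fold of each other in the 3 mutants. Among them were the dopamine receptor gene drd4a, the transcription factor gbx2, the calcium pump atp2a2a and the intestinal alkaline phosphatase alpi.1. The latter had 11, 9 and 13 counts, and no mutant stood apart.

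The members with the highest lowest mutant count come first. The actin-bundling protein of hair cell stereocilia, espn (ENSDARG00000076414, GRCz10 chromosome 8, 46948555 to 47098260), had 19, 39 and 52 counts in mutants 1, 2 and 3. Its level was 168 ± 77.6 CPM (SD, n = 3). That is 17-fold the controls when each control is given a floor of 3 counts, and 12.6-fold without mutant 2. Such a bound allows for few counts in the controls only, not for the spread between mutants. The floor averaged 9.91 CPM over the controls and 6.04 CPM without control 3, the shallowest of them, which would raise each bound 1.64 times. TRHDE (2 of 2), a peptidase that breaks down thyrotropin-releasing hormone, had 70, 16 and 89 counts (chromosome 4, 23502555 to 23691115). Its mean was 245 ± 136 CPM (SD, n = 3), a bound of 24.7-fold, and of 18.1-fold without mutant 1. In both genes each mutant lay above the floor of each control.

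The dopamine receptor drd4a (chromosome 25, 4580646 to 4606694) had 16, 20 and 33 counts, or 103 ± 23.4 CPM (SD, n = 3), a bound of 10.4-fold. Its gene overlaps the unnamed row si:ch73-365i12.4, itself a member with 13, 11 and 14 counts, and reads without strand cannot separate them. Counts of gbx2, a transcription factor of the midbrain-hindbrain boundary, were 14, 20 and 29. No mutant stood apart in these genes once depth was taken into account, and the bounds were 10.4-fold, 6.10-fold and 9.69-fold.

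The dorsal neural tube factor zic2a had 20, 15 and 13 counts, with a bound of 8.14-fold. It overlaps zic5, a row with counts in the controls. The adenylyl cyclase adcy6a, which makes cyclic AMP, had 13, 14 and 57 counts and a bound of 10.9-fold. The ATR partner atrip, of the DNA damage checkpoint, had 13, 19 and 21 counts, a bound of 8.52-fold. Counts of rnasen, the microRNA-processing nuclease Drosha, were 10, 14 and 10, a bound of 5.83-fold. By CPM, mutant 3 was highest in adcy6a and lowest in the other genes.

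Among the 20 members with the highest lowest count, 7 had a bound that fell by more than 1.5 times when 1 mutant was left out. The slow myosin heavy chain smyhc1 had 11, 204 and 33 counts, and its bound of 49.8-fold was 7.74-fold without mutant 2. The bound of asb16, a SOCS box protein, was 17.2-fold from 13, 63 and 11 counts and 5.11-fold without mutant 2. For si:dkey-226m8.9, which the name table calls KANK1, counts of 16, 48 and 11 gave 14.4-fold, and 5.92-fold without mutant 2. In these 3 genes mutant 2 was far above the others.

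In a further 3 genes mutant 1 was highest. Counts of the growth factor PDGFD were 45, 16 and 18, with a bound of 13.4-fold and of 7.85-fold without mutant 1. The bitter taste receptor tas2r200.1 had 31, 14 and 12 counts, a bound of 9.81-fold and of 6.32-fold without mutant 1. The cartilage protein cilp2 had 30, 11 and 15 counts, a bound of 9.26-fold and of 5.77-fold without mutant 1. The unnamed locus si:ch211-159i8.4, with 16, 17 and 88 counts, was highest in mutant 3, and its bound of 15.1-fold was 9.91-fold without it. The remaining members of the 20 were the unnamed loci si:dkey-32n7.7, CABZ01032983.1 and si:rp71-1f1.4, and atp2a2a, the calcium pump of the sarcoplasmic and endoplasmic reticulum, with 10, 12 and 23 counts.

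**Figure D2:**
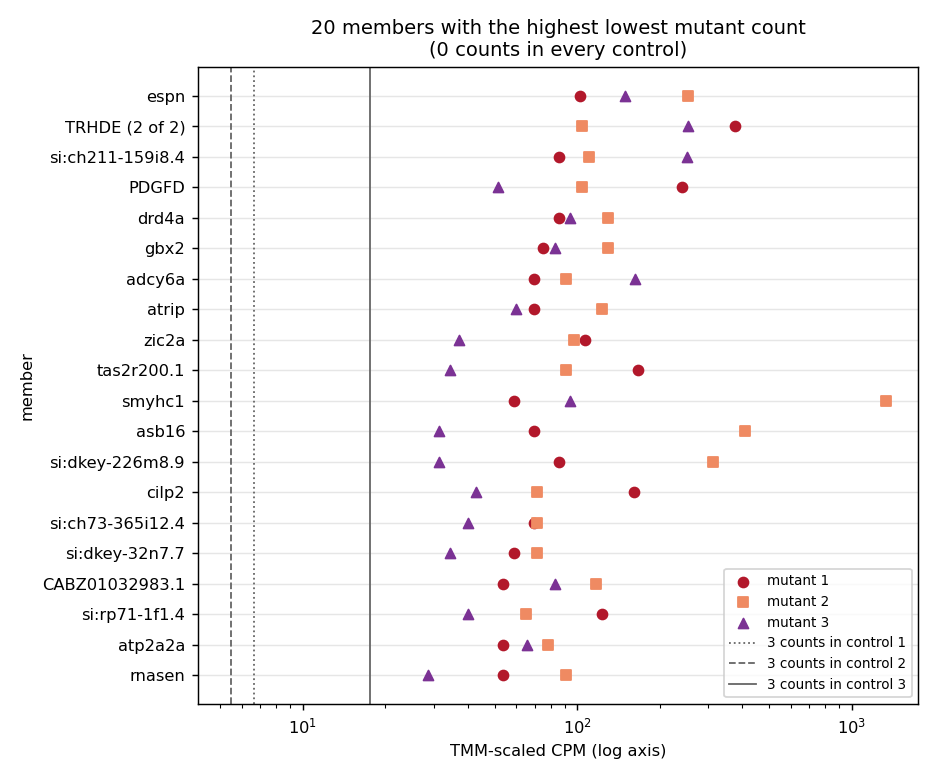
TMM-scaled CPM (log x axis) of the 20 members with the highest lowest mutant count, 1 symbol per mutant, with vertical lines at the CPM of 3 counts in each control. Every symbol lies right of all 3 lines, and mutant 2 stands apart in smyhc1, asb16 and si:dkey-226m8.9.

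Over the whole set, 83 of 218 members (38.1%) had every mutant above the 3-count floor of every control, and 150 did when control 3 was left out. In the other members at least 1 mutant lay at or below the level that 3 counts give in the shallowest control, so the depth does not separate that mutant from a low control level.

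To show which tissues and functions the genes belong to, members whose gene has a known role were put in 1 of 15 classes by what that gene is best known for. The classes were assigned by hand after the counts were seen and carry no test. They were given to members only, so the share of each class over all rows is not known. A class was given to 158 members, and 60 were left without one, 51 of them unnamed loci and 9 with a name, such as fam60al and VWA7. Of 198 members whose identifier stood in the name table, 8 unnamed loci gained a name from it that placed them in a class. The largest class was the nervous system with 34 members (15.6%), followed by enzymes of gut, liver, steroid and general metabolism with 20 (9.17%). Intracellular signalling enzymes held 12, sensory organs 11, and DNA repair, chromosomes and chromatin 10. Cartilage, tendon and matrix held 9, as did muscle and paraxial mesoderm, and RNA processing and protein maturation. No class is an expression measurement: many of these genes are active in more than 1 tissue.

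In the nervous system class, 11 of 34 members were neurotransmitter receptors, orphan receptors or ion channels. The serotonin receptor htr1b had 9, 9 and 83 counts in mutants 1, 2 and 3. The adrenergic receptor adra2a had 5, 70 and 34 counts, and a second adrenergic receptor, adra1ab, had 16, 2 and 43. Mutant 1 was lowest for adra2a and mutant 2 for adra1ab. By CPM, htr1b and adra1ab were highest in mutant 3 and adra2a in mutant 2.

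The GABA-B receptor subunit gabbr2 had 4, 25 and 56 counts, and gabra2, a GABA-A receptor subunit listed as GABRA2 (2 of 2), had 2, 13 and 11. Counts of the orphan receptor gpr158b were 8, 13 and 69. The muscarinic receptor chrm4b, listed as si:ch73-151m17.5, had 11, 5 and 18 counts. Among channels, the delta-type glutamate receptor grid1a had 23, 5 and 9 counts, and the acid-sensing channel row ASIC2 had 2, 27 and 17. The latter lies on a second row of the same name in lower case, asic2, which has counts in controls, so its absence there is uncertain.

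Other members of this class included a partner of the GABA-B receptor. The GABA-B receptor auxiliary protein kctd12.1 had 3, 46 and 25 counts and its relative kctd16a had 1, 22 and 9. The sodium pump subunit atp1b2b had 7, 16 and 14 counts, and ppp1r9bb, which encodes a spine protein of the neurabin family, had 3, 14 and 34. Mutant 1 had the fewest counts in all 4 of these genes and in gabbr2.

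Synaptic adhesion proteins formed another part of this class. By the start of the gene name, neuronal adhesion and axon guidance made up 1.83% of members, near the 1.88% of all rows. The postsynaptic partner of neurexin, nlgn1, had 39, 3 and 5 counts and lrfn5b had 28, 6 and 56. The Nogo receptor rtn4r had 7, 3 and 56, and its relative in the pathway rtn4b, which encodes a form of Nogo itself, had 5, 13 and 3. Receptor and ligand were thus highest in different mutants. The neuronal splicing regulator nova1 had 8, 14 and 22 counts, more even than the adhesion genes.

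Neuronal transcription factors were represented by gbx2, zic2a, lhx4 and neurod6b. Counts of lhx4, a LIM factor of motor neurons and pituitary, were 80, 2 and 13, and those of neurod6b were 2, 4 and 41. The axon guidance protein DRAXIN (2 of 2) had 2, 19 and 5 counts, and tnr, a matrix protein of the central nervous system, had 2, 13 and 26. The leading mutant varied from gene to gene. Over the class the highest CPM was in mutant 1 for 8 members, in mutant 2 for 18 and in mutant 3 for 8. Over all 218 members these numbers were 105, 89 and 24.

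Neuron markers outside the members were also measured. Of 33 listed markers 9 were among the rows, and they summed to 708, 851 and 881 CPM of the library total in the mutants, against 319, 145 and 138 CPM in the controls. The sum was higher in each mutant than in each control, as were 4 of the 9 markers taken singly. Among these 4 is slc17a6a, whose difference is given by the count rule and which adds to the mutant sums. Another of the 4, stmn2b, had 0, 0 and 4 counts in the controls against 24, 8 and 13 in the mutants. No row seen only in control 3 had fewer than 9 counts. Read in this way, stmn2b, chata and slc17a6a were listed through a mutant, so the filter sets part of the sums and of the 4. Of these 9 markers 2 were at 0 in every control, the cholinergic gene chata, with 0, 16 and 2 counts in the mutants, and slc17a6a, which passes the count rule and is left out by its name. The GABA-synthesizing enzyme gad2 had more counts in control 1, with 125, 7 and 0 in the controls against 3, 0 and 3 in the mutants. The splicing factor rbfox1 had 0, 49 and 0 counts in the controls against 1, 0 and 15. The pan-neuronal RNA-binding protein elavl4 was present in the controls at 40, 2 and 5 counts and in the mutants at 10, 49 and 58. The neurexin nrxn1a had 46, 20 and 97 counts in the mutants, against 8, 28 and 1 in the controls. The controls therefore were not free of neuronal transcripts, and the part of nervous tissue in the members' counts was not tested.

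The sensory organ class held espn with genes of taste, smell and sight. Both bitter taste receptors among the 10022 rows were members, tas2r200.1 and tas2r4, the latter with 3, 13 and 2 counts. The vomeronasal-type receptor v2rx1 had 43, 6 and 2 counts. Opsins outside the visual cones and rods were opn4xa, a melanopsin with 11, 2 and 3 counts, and CABZ01035108.1, which the name table calls opn8a, with 4, 17 and 3. Of the photoreceptor gene rgs9bp, which anchors a G protein regulator, mutant 1 had 38 counts, mutant 2 had 1 and mutant 3 had 5. By CPM, mutant 1 was highest in 7 members of the class, mutant 2 in 4 and mutant 3 in none. Over all 218 members the numbers were 105, 89 and 24. Taste and vomeronasal-type receptors belong to multigene families. Reads shared with other copies were not measured, so their counts are uncertain.

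Hair cell markers put espn in context. Of 15 listed, 9 were among the rows, and they summed to 337, 1270 and 1160 CPM in the mutants, against 368, 89.8 and 601 CPM in the controls, so the groups overlapped through mutant 1. These sums include espn itself, whose counts the rule chose. Of these 9 only espn was at 0 in every control. By CPM, 3 of the 9 were higher in each mutant than in each control, and 0 were lower. The 3 were espn, pcdh15a and otofa. Counts of pcdh15a were 9, 24 and 48 in the mutants, against 12, 0 and 1 in the controls. No row seen only in control 1 had fewer than 15 counts, so pcdh15a appears to be listed through its mutant counts. The filter thus sets part of its difference. Counts of otofa were 15, 20 and 23 in the mutants, against 20, 0 and 0 in the controls. The cadherin cdh23 of the hair bundle tip link had 9, 7 and 49 counts in the mutants, against 5, 0 and 13 in the controls. The otoferlin gene otofb, whose product serves vesicle release in hair cells, had 5, 4 and 21 counts in the mutants, against 52, 0 and 5 in the controls. Of the retina and lens markers listed, 17 in number, none was among the rows.

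Muscle and paraxial mesoderm members covered several steps of muscle formation. The presomitic factor msgn1 had 69, 2 and 23 counts, the muscle progenitor factor pax7b had 5, 24 and 11, and the muscle regulatory factor myf6 had 3, 14 and 18. The muscle chloride channel clcn1a had 11, 1 and 1 counts, the smallest sum of all members. By CPM, which takes depth into account, 6 of the 9 members were highest in mutant 2, smyhc1 among them, and none in mutant 3. Over all 218 members, 89 were highest in mutant 2 and only 24 in mutant 3.

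Skeletal muscle markers were counted in both groups. Of 21 listed, 15 were among the rows. These summed to 4080, 8360 and 11900 CPM in the mutants, against 27500, 1120 and 872 CPM in the controls. Control 1 was above every mutant, and the other 2 controls were below. These sums include the member smyhc1, with 204 counts in mutant 2. The fast muscle light chain mylpfa had 199, 393 and 877 counts in the mutants, against 5861, 203 and 8 in the controls, while smyhc1, of slow muscle, was the only marker of this list at 0 in every control.

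Metabolic members were spread over many pathways. Named by level were asphd2, with 20, 9 and 48 counts, the gamma-glutamyl transferase GGT5 (2 of 2), with 15, 27 and 7, and cyb561a3a, a cytochrome b561, with 6, 27 and 3. The steroid dehydrogenase hsd3b1 had 17, 4 and 6 counts and the tyrosine aminotransferase tat, a liver enzyme, had 17, 1 and 2. The intestinal meprin mep1a.1 had 13, 3 and 9 counts. In this class 12 of 20 members were highest in mutant 1, against 105 of all 218 members. Of the 20, 9 stood in the authors' deposited table, against 140 of the 218. The gut, liver and yolk markers, given above, summed higher in every control than in every mutant, and their part in these counts was not tested.

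Signalling members included inpp4b, a phosphatase of phosphoinositides, with 73, 7 and 10 counts. The G protein subunit gnaq had 12, 4 and 18 counts and the kinase stk33 had 43, 1 and 15. Among growth factors and their receptors, fgf8a, the signal of the midbrain-hindbrain boundary, had 3, 12 and 42 counts. The receptor tyrosine kinase kitb had 1, 16 and 20 counts and the Nodal co-receptor tdgf1 had 2, 1 and 45. The Dishevelled gene dvl1b had 1, 17 and 3. A single mutant held most of the counts of tdgf1, inpp4b and stk33.

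Matrix genes were frem1a, of the basement membrane, with 14, 11 and 9 counts, the collagen col11a2 of cartilage, with 3, 27 and 6, and the tendon gene tnmd, with 1, 14 and 2. Cytoskeletal members were led by tns2b, a tensin of focal adhesions, with 5, 89 and 24 counts, and wipf1b, a partner of the WASP proteins, with 44, 9 and 5. The microtubule protein MAP4 (1 of 2) had 20, 2 and 35 counts. Mutant 2 was highest in col11a2, tnmd and tns2b, and mutant 1 in wipf1b.

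Immune members had the lowest support. In 5 of the 6 the least covered mutant had 1 count. The phosphatase ptpn6 of blood cells had 47, 4 and 9 counts, and cybb, the catalytic subunit of the phagocyte NADPH oxidase, had 42, 1 and 47. The interleukin receptor il13ra1 had 1, 59 and 10. Blood and immune markers, 4 of 15 among the rows, summed to 75.5, 481 and 917 CPM in the mutants, against 52.5, 46.9 and 112 CPM in the controls, and the groups overlapped through mutant 1. Most of the sum in mutant 3 came from csf1ra, the macrophage receptor, with 200 counts there.

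Germ cell genes made up 5 members. The meiosis gene msh4 had 37, 5 and 7 counts, the primordial germ cell protein dnd1 had 1, 47 and 4, and the oocyte gene zar1 had 17, 1 and 14. The oogenesis gene org had 1, 24 and 4 counts. The fifth, klhl10a, of spermatids in mammals, had 2, 32 and 9. Of the 5, 3 had a single count in 1 mutant.

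DNA repair members beside atrip were the mismatch repair gene pms1, with 21, 7 and 47 counts, the mitochondrial nuclease mgme1, with 33, 7 and 9, and the recombination gene rad52, with 31, 1 and 3. The last overlaps wnk1a, a row with counts in the controls. Genes of RNA processing and protein maturation included the methyltransferases mettl2a, with 99, 27 and 3 counts, and mettl13, with 8, 25 and 17. Membrane traffic genes included fam134b, the endoplasmic reticulum turnover receptor retreg1 of the name table, with 8, 61 and 18 counts. A glycan enzyme, GAL3ST3, which adds sulfate to galactose, had 22, 9 and 27 counts. Housekeeping functions of this sort were present beside the tissue genes.

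Of the members without a class, zgc:65894 had 3, 114 and 4 counts and si:dkey-121h17.6 had 5, 14 and 92. The VWA domain gene VWA7 had 20, 3 and 43 counts, and fam131bb had 26, 4 and 6. The deubiquitinase stambpl1, among the transcription and ubiquitin factors, had 30, 2 and 5, and the zinc finger row ZNF507 (5 of 11) had 10, 26 and 1. Of the 60 members without a class 35 were highest in mutant 1, 18 in mutant 2 and 7 in mutant 3. These compare with 105, 89 and 24 of all 218.

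Families set by the start of the gene name allowed a comparison with all rows. G protein-coupled receptors made up 11 members, 5.05% against 1.59% of all rows. The count is 15 with the taste receptors and the receptors named by the name table. All rows were not counted in that wider way, so the 15 has no share to stand beside. Channels made up 7 members, 3.21% against 1.43% of all rows, but 1 of them, tmem163a, is a zinc transporter that the name pattern drew in. Its counts were 10, 12 and 12. Unnamed loci were 59 members, 27.1% against 12.5%. Rows at 0 in the controls that missed 1 or 2 mutants comprised 4.20% receptors, 1.91% channels and 32.4% unnamed loci.

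Other families were near or below their share of all rows. Kinases, phosphatases and second messenger enzymes were 5.96% of members against 5.63%, and lipid and small molecule metabolism 6.42% against 5.77%. Transcription factors other than the families left out by name were 4.13% against 5.77%, and small GTPases and their regulators 0.917% against 2.93%. No member belonged to the cilia and axoneme names, which 133 rows carry, or to the synaptic vesicle and postsynaptic names, which 91 rows carry. With 2.27% of all rows meeting the counts, families of this size would hold few members. The names also miss some such genes: nlgn1 and iqsec3a, of synapses, fell in other families. So did KIF9 and CCDC176 (2 of 2), bbof1a in the name table, both of cilia. Multiciliated cell markers, 10 of 19 among the rows, summed to 1770, 1200 and 897 CPM in the mutants, against 684, 677 and 117 CPM in the controls. Of these 10, 2 were higher in each mutant than in each control. The filter sets part of these sums, as for the neuron markers. The family shares describe rows that the counts chose and were not tested.

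**Figure D3:**
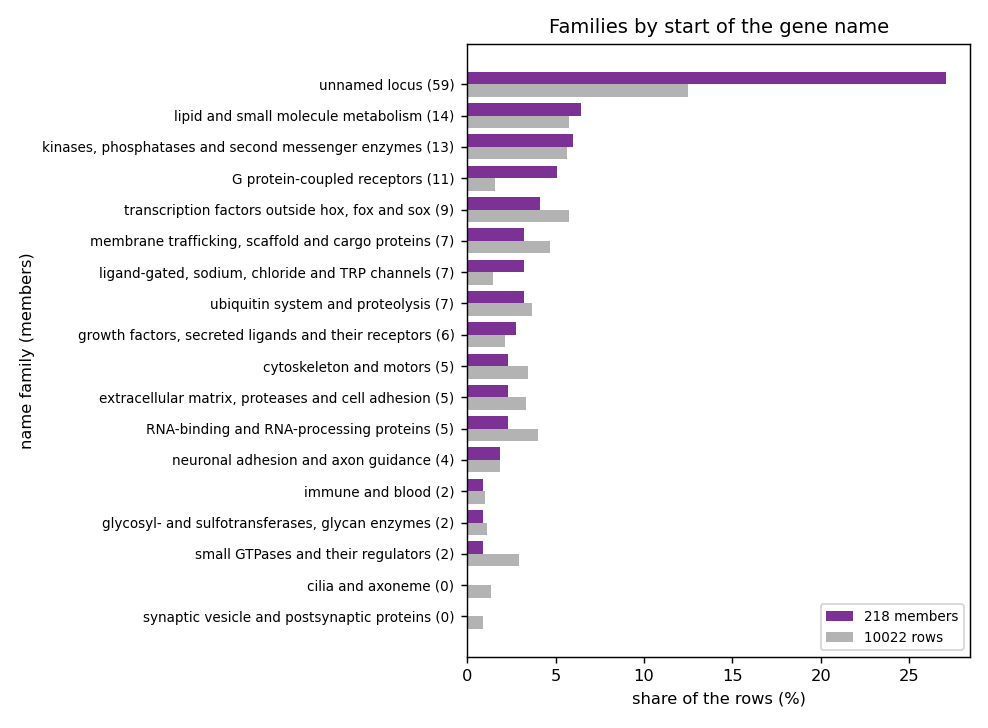
Share (%) of the 218 members (purple) and of all 10022 rows (grey) that fall in each of 18 families set by the start of the gene name, with the number of members in brackets. The bars of the members pass those of all rows most for unnamed loci, receptors and channels.

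The median gene span of the members was below that of all rows. The file gives each row a span from start to end, introns included, and the median span of the members was 16355 bases (quartiles 6536 and 41003). The median was 22584 bases over all rows and 30974 bases over the 3354 rows counted in all 6 libraries. Rows at 0 in 1 or more libraries had a median of 19149 bases. Rows at 0 in the controls and in 1 or 2 mutants had a median of 10416 bases, below that of the members, and 29.8% of them were under 5 kb. The opposite pattern had a median of 14767 bases. Among members 20.2% were under 5 kb and 7.34% were 100 kb or longer, against 13.7% and 8.92% of rows at 0 in 1 or more libraries.

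Spans ran from 807 to 408400 bases. The longest was grid1a, followed by CABZ01071723.1, with 1, 24 and 6 counts over 373895 bases, then gabbr2 with 368365 bases. The phosphatase gene inpp4b spans 338258 bases and iqsec3a, of inhibitory synapses, 269317 bases with 9, 19 and 41 counts. The shortest were si:rp71-1f1.4, with 23, 10 and 14 counts, tas2r4 with 918 bases and BX682552.1 with 936 bases and 42, 8 and 2 counts. Over the 218 members the Spearman correlation of span with summed count was 0.0448, across genes that share the same 3 libraries and are not independent. By class, the median span was 26022 bases in the nervous system and 7494 bases in the sensory organs.

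**Figure D4:**
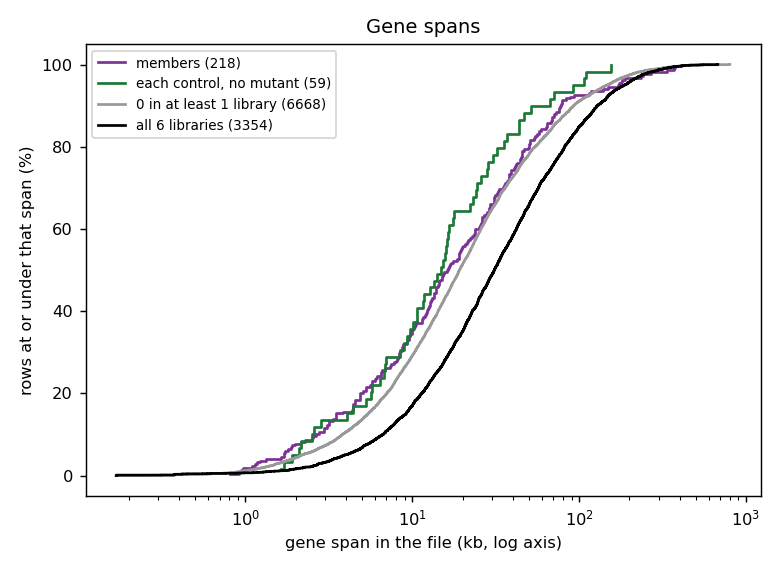
Share of rows (%) at or under each gene span (kb, log axis) for the members, the rows of the opposite pattern, the rows at 0 in at least 1 library and the rows in all 6. The curve of the members runs close to that of rows at 0 in at least 1 library and left of that of rows in all 6, with medians of 16355, 19149 and 30974 bases.

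Members lay on all 25 chromosomes, with 5 to 13 on each. Only 4 pairs were neighbours in the row order, among them KIF9 and rgs9bp on chromosome 7, 8217 bases apart, and the overlapping drd4a and si:ch73-365i12.4. In all, 25 members overlapped another row, 18 of them a row on the other strand, and 22 overlapped a row with counts in a control, inpp4b, msgn1, rasef, tas2r200.1 and fam134b among them. Reads of such genes are uncertain. The names of 14 members, some of them among the 25, give a copy number, such as TRHDE (2 of 2). Reads shared between such copies were not measured, so these counts are uncertain.

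Whether a library left out of the rule showed the same pattern was measured for each in turn. The filter of the count table had still used that library. By the limits inferred from the values, a row low in all others is listed only if the held-out library reaches its limit. The filter thereby sets part of these shares. Rows chosen by the other 5 libraries numbered 387 with control 1 held out, and 56.3% of them were at 0 in it. Of the 891 rows that were at 0 in controls 2 and 3, with nothing asked of the mutants, 52.6% were at 0 in control 1. For control 2 the same shares were 51.9% and 50.9%, and for control 3 they were 36.9% and 38.1%. Each stood above the share of all rows at 0 in that library, which was 27.7%, 25.4% and 25.6%. The paired shares thus differed by at most 3.69 percentage points. Among rows with a mean of 10 or more counts, the pair for control 3 was 28.3% and 33.3%. With 5 or more counts asked of each mutant, the share was 58.4% for control 1 and 33.8% for control 3.

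In the mutants the held-out share was counted the other way, as rows with 1 or more counts. It was 68.1% of 320 rows for mutant 1, 78.7% of 277 for mutant 2 and 87.9% of 248 for mutant 3. All rows had 78.6%, 77.5% and 90.5% in these libraries. Rows with counts in the other 2 mutants, with nothing asked of the controls, had 82.9%, 82.0% and 95.0%. The share among rows chosen by the other 5 libraries was 14.8, 3.27 and 7.12 percentage points below the latter. Here too the filter sets part of the shares. By the inferred limits, a row low in the other libraries had to reach its limit in the held-out mutant. No test was made of these differences, since rows of one library are not replicates.

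**Figure D5:**
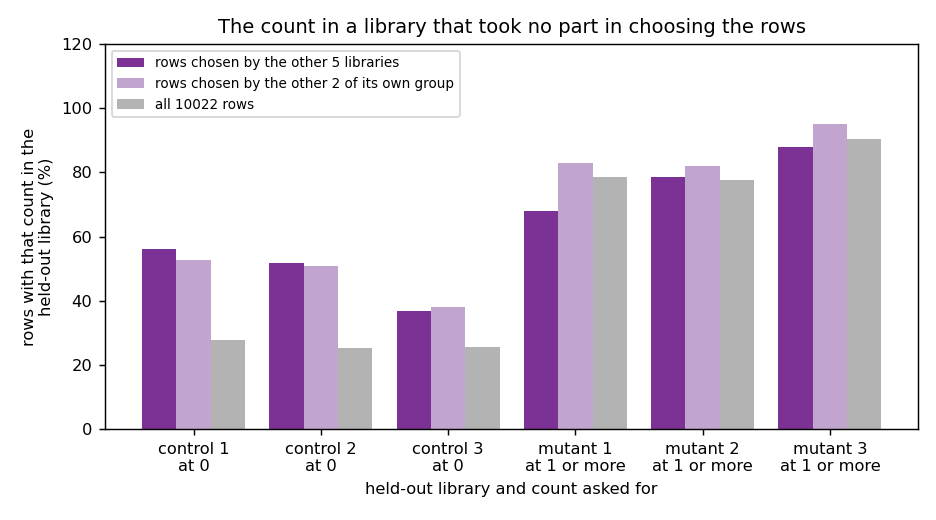
Share of rows (%) with 0 counts in each held-out control, or with 1 or more in each held-out mutant, for rows chosen by the other 5 libraries, rows chosen by the other 2 libraries of its group, and all rows. In the controls the first and second bars differ by at most 3.69 points, and in each mutant the first bar is below the second. The filter of the count table had used the held-out library too.

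The rule's edges were crossed by single counts. Just inside it were clcn1a, si:ch1073-284b18.3, with 12, 1 and 1 counts, and si:ch211-161c21.2, with 1, 12 and 2. Just outside were 122 rows with 1 count over the controls, led by MSANTD2, with 48, 88 and 68 counts in the mutants and 1 in control 2. The T cell gene themis had 19, 20 and 27 counts in the mutants and 1 in control 2. The third, si:ch211-69l10.4, had 18, 54 and 28 and again 1 in control 2. Their lowest mutant counts of 48, 19 and 18 compare with 19 in espn, the highest among the members.

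A further 191 rows had 0 counts in the controls and in 1 mutant. Among these were g0s2, an inhibitor of fat breakdown, with 0, 347 and 7 counts, and FAM189B with 225, 0 and 25. In all, 489 rows were at 0 in every control, and of these 227 were counted in 3 mutants, 200 in 2 and 62 in 1.

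The authors' deposited table of adjusted p-values, which used the same contrast as the rule, lists 140 of the 218 members (64.2%), or 36.9% of its 379 rows. Identifiers of that table stand on 384 of all 10022 rows, or 3.83%. The members' FDR in the authors' deposited table ran from 0.00574 for fam60al to 0.0498. It lists 20 of the 21 members with 10 or more counts in each mutant, all but smyhc1, and 22 of the 58 with a single count in some mutant. It does not list dtna, the member with the largest sum of counts, carried by 1 library. By class the authors' deposited table lists 29 of 34 nervous system members and 1 of 7 of membrane traffic and lysosome.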

How the data were processed

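Gene counts of 3 control and 3 epcam mutant libraries were read from the table of filtered raw counts the authors deposited. Trimmomatic 0.36.0 and TopHat2 2.1.0 are listed in the submitters' processing notes, as are GRCz10 and, among the authors' tools, DESeq2, but no source used here gives the counting tool. Each column's lowest value (11, 0 and 32 for the controls in order, 30, 31 and 17 for the mutants) was read as a constant and subtracted, an inference from the values. The FDR, an adjusted p-value, is the authors' own, from their deposited table. The members, name families, marker lists and rule for named genes were chosen with earlier results of these data known, and the classes after the counts were seen.

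Named genes are the 20 members with the highest lowest mutant count, the 4 of highest mean CPM in each family with 3 or more members, members on a marker list, those at the rule's edges, and the 5 longest and 3 shortest spans. Other members named as examples of a class were chosen after their values were seen. CPM used edgeR 4.0.16 TMM factors (R 4.3.3), or library totals for marker lists. Folds divide the mean mutant CPM by the mean CPM of 3 counts in each control. They are lower bounds on the side of the controls only. They cover neither the spread between mutants nor the subtraction of each column's lowest value. Identifiers of 198 members matched the name table. The code of the selection was also run on simulated counts that had a known constant in each column. That run checked the code only, not the reading of each lowest value as a constant. No test was made of the members, and depth limits each zero to under 3 counts of a library's total. One row that the naming rule picks at the edge of the selection is not reported here.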

Additional observations from a re-analysis of the deposited data

How the results depend on the processing

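The number of rows chosen, 218, rose to between 248 and 590 when any 1 library was left out, most without control 3. It was 66 with 5 or more and 21 with 10 or more counts in each mutant, and 340 with 1 count allowed over the controls. With control 3 alone, the control of the mutants' sequencing project, 1189 rows were chosen, and with counts scaled to the shallowest library 332. The values as deposited gave 0 rows, since nothing but control 2 reaches 0 there, so the set rests on the subtraction of each column's minimum. Subtracting 1 more gave 269 rows, of which 160 were members. The share in the authors' deposited table was 90.9% for members with 5 or more counts in each mutant. Among rows with a mean of 10 or more counts, the held-out shares were 42.2%, 36.2% and 28.3% for controls 1, 2 and 3 and 96.4% for mutant 3, against 39.9%, 36.7%, 33.3% and 97.9% among rows chosen by the other libraries of the same group. The median span stayed between 13836 and 19698 bases in every alternative run. Leaving out each library and scaling by library totals were added for the fold bounds after the data were seen. Of 140 such values, 118 moved by less than the spread between mutants. A mutant that stands apart widens that spread, so the 118 do not show that the bounds are stable. The bound of smyhc1 fell from 49.8-fold to 7.74-fold without mutant 2 and is among the 118. No paired analysis was possible because the result comes from no test.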

Other observations

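Left out by their names were 9 rows that met the counts, 6 of them solute carriers. The neuronal chloride exporter slc12a5b had 11, 10 and 188 counts in mutants 1, 2 and 3, and slc17a6a, the vesicular glutamate transporter, had 15, 3 and 4. The forebrain factor foxg1a had 3, 22 and 18 counts and the mesenchymal factor foxc1b had 5, 11 and 42. The potassium channel kcnk18 had 17, 5 and 4. The sulfate transporter slc13a1, which in kidney belongs to the proximal tubule, had 4, 17 and 6 counts, and the organic anion transporter slco4a1 had 11, 21 and 13. The least covered were slc12a8, with 1, 43 and 15, and slc22a7b.1, with 1, 6 and 62. The authors' deposited table lists 6 of these 9 rows.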
